A study of Mus musculus with 2 samples.

Results

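The genes described here are the semaphorins, a family of secreted, transmembrane or membrane-anchored guidance ligands, and their receptors, the plexins and neuropilins. They were chosen by symbol: Sema with a class number from 3 to 7 and a letter, Plxn with a letter from a to d and a number, and Nrp1 and Nrp2. This gave 31 of the 27999 features, made up of 20 semaphorins, 9 plexins and 2 neuropilins. Class 3 semaphorins are secreted, classes 4, 5 and 6 span the membrane, and Sema7a is held by a lipid anchor. Plexins carry a cytoplasmic domain that switches off small GTPases of the Ras and Rap family, and neuropilins, which have almost no signalling domain of their own, hold class 3 ligands for the plexins and also bind vascular endothelial growth factors. In the heart the family is known for outflow tract and coronary vessel patterning and for guiding sympathetic axons.

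The data were single-cell RNA libraries from the right ventricle of mouse pups in which p300 (Ep300) and CBP (Crebbp), a pair of related lysine acetyltransferases, were targeted for knockout. Both libraries carry the same description: strain C57/BL6J, genotype CBP flox/flox, p300 flox/flox and Trap flox/flox (written trap flox/flox for library 2), AAV9 given on postnatal day 1 and tissue harvested on postnatal day 21. They form 1 group of 2 libraries with no control sample, so nothing here compares conditions, and every comparison is between cell classes. The labels do not give the promoter or cargo of the AAV9, which cells it reached or what Trap is. Nor do they give how many animals went into a library. The p-values therefore measure only how far class differences varied between these 2 libraries. A shift shared by all classes of a library is taken out by fitting library as a block. The remaining spread may be technical in part, and the libraries also differed in sex-linked RNA. The protocol names frozen tissue, collagenase digestion and bead enrichment of CD45+ cells.

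Library 1 held 12736 barcodes and 57982200 UMIs (unique molecular identifiers, which count captured RNA molecules), and library 2 held 9447 barcodes and 50199793 UMIs. After filtering, 20682 cells were kept and clustered without the 79 genes studied here, and clusters were called X-like from marker genes. The libraries differed in make-up: cardiomyocyte-like cells were 61.9% of library 1 and 25.5% of library 2, and the classes of at least 50 cells in both libraries ranged from 51 to 7419 cells. Summed cardiomyocyte markers in fibroblast-like cells were at 8829.8 CPM (UMIs of a gene per 1000000 UMIs of the class) in library 1 and 2449 in library 2, against 60145 and 71426 in cardiomyocyte-like cells, and in every tested class other than the cardiomyocyte-like one they were higher in library 1. Their part in the results was not tested. Ptprc, which encodes CD45, was at 759 and 1008 CPM in macrophage-like cells and at 0.905 and 2.73 in cardiomyocyte-like cells. Ep300 was at 111 and 117 CPM in cardiomyocyte-like cells and Crebbp at 384 and 465, which checks nothing because 3′ counts can lie outside a deleted part and there is no control. The libraries shared 17 barcode sequences, cluster 14 (311 cells in library 1, 0 in library 2) was led by liver genes, and a cardiomyocyte-like cluster of 229 and 1989 cells was led by Y-linked genes. Sex-linked RNA differed between the libraries: over all barcodes the X-inactivation gene Xist was at 1246 and 529 CPM and the Y-linked genes Uty, Kdm5d and Ddx3y at 0.293, 0.103 and 0.466 in library 1 and at 214, 50.7 and 77.7 in library 2. Library 2 thus held Y-linked RNA that library 1 all but lacked, together with Xist.

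Levels are given in CPM, library 1 first and library 2 second. Because levels of different genes depend on transcript length and capture, each gene is compared only with itself across classes. Differences are log2 values of a class against the mean of the other 7 tested classes, from edgeR's quasi-likelihood test with library as a block. A call of higher or lower needed a difference of 2-fold or more and an adjusted p below 0.05. In a fit of 12663 genes, 27 of the 31 members passed the filter on low counts, and 4 did not (Sema4f, Sema4g, Plxna3 and Plxnb3). Highest, lowest and other classes refer to these 8 tested classes unless a further class is named. A gene can be called higher in several classes, since each class is set against the mean of all the others.

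**Figure D1:**
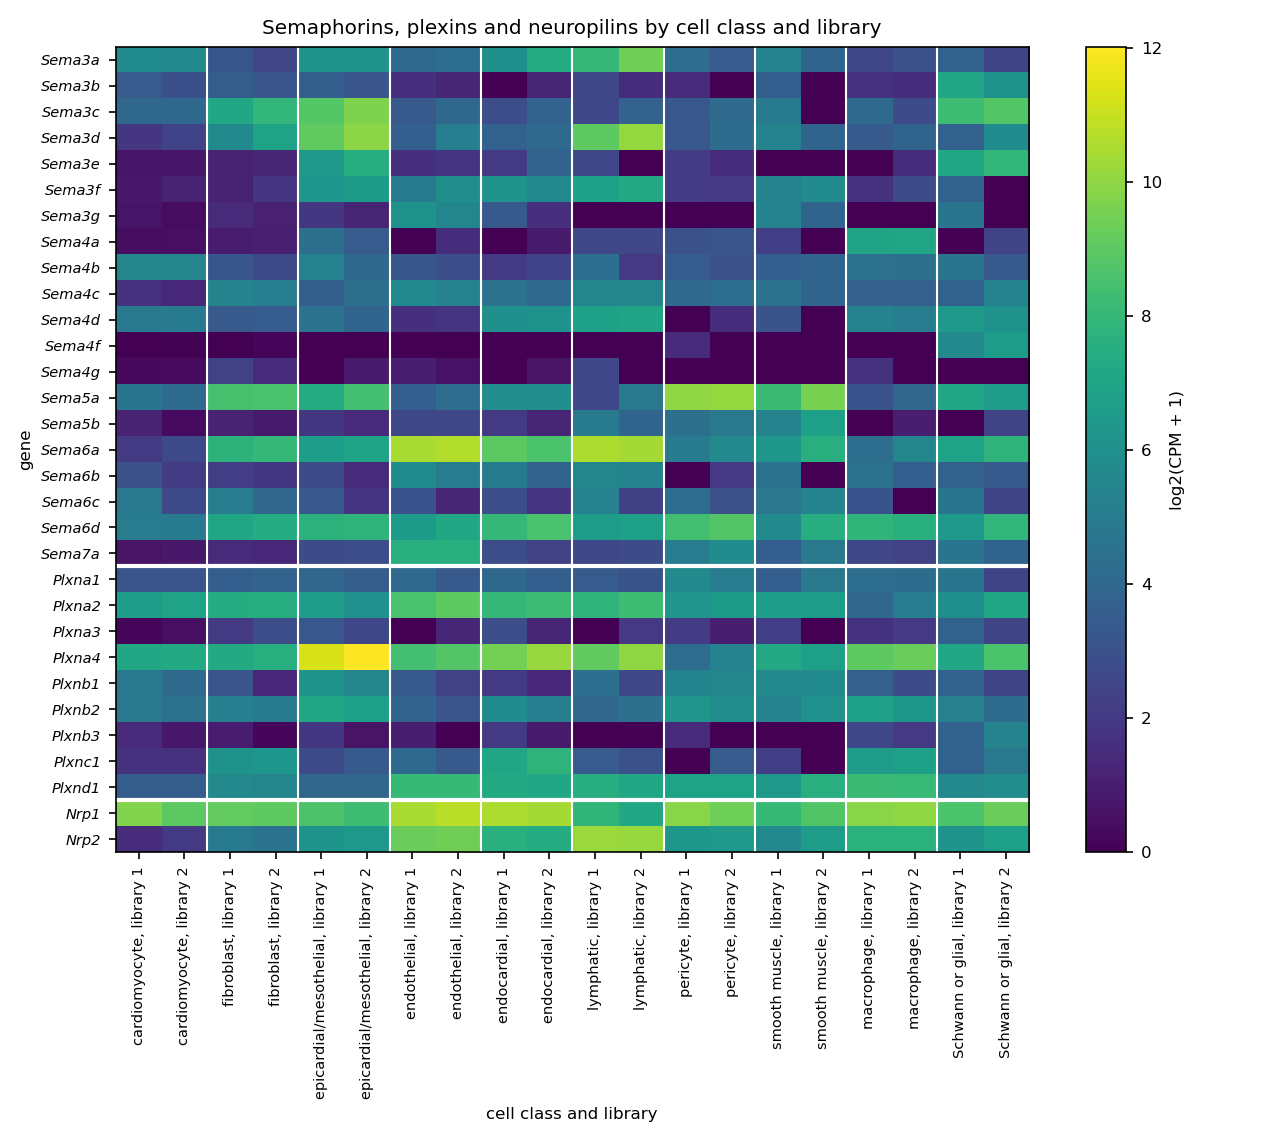
Colour gives the level of each gene (rows: semaphorins, plexins, neuropilins) as log2(CPM + 1) in each cell class and library (columns; 10 classes, 2 libraries). Sema7a is highest in endothelial-like cells, Plxna4 in epicardial or mesothelial-like cells and Sema5a in pericyte-like cells, in both libraries.

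Of the 216 combinations of 27 members and 8 classes, 68 were called higher and 58 lower. All 126 had the same sign in either library alone, as differences of log CPM without a fit. The calls were made on these same 2 libraries, so that agreement was largely built in and is no separate support. Endocardial-like cells, the lining of the chambers, had 13 members higher and 5 lower, where 9.84% and 5.95% of all tested genes were called higher and lower. Epicardial or mesothelial-like cells, the outer covering of the heart, had 11 higher and 5 lower (13.9% and 5.07% of all genes). Endothelial-like cells had 10 higher and 5 lower (10.7% and 6.96%), and lymphatic endothelial-like cells also had 10 higher and 5 lower (10.0% and 4.33%). Fibroblast-like cells had 7 higher and 9 lower (11.3% and 8.24%), and pericyte-like cells, which wrap capillaries, had 6 higher and 9 lower (8.93% and 6.56%). Cardiomyocyte-like cells had 6 higher and 13 lower (19.2% and 21.6%). Macrophage-like cells had 5 higher and 7 lower (13.1% and 13%). Sema3a, Sema3f and Sema4d were each called higher in 4 classes, and Plxna1 and Sema4b in 1 class.

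The median log2 difference of the 27 members was 0.86 in endocardial-like cells and -0.89 in cardiomyocyte-like cells, against -0.01 and 0.05 over all tested genes. It was 0.40 in lymphatic endothelial-like, 0.39 in epicardial or mesothelial-like, -0.37 in pericyte-like, -0.43 in fibroblast-like, -0.47 in endothelial-like and -0.63 in macrophage-like cells, and the medians over all genes there lay between -0.13 and -0.02. Sema3g had no UMI in 3 classes, so its fitted values depend on a prior count. With those zeros set at a floor of 3 UMIs per library the medians became 0.18 in endocardial-like, 0.05 in epicardial or mesothelial-like, 0.83 in lymphatic endothelial-like and -1.34 in cardiomyocyte-like cells. Only Sema3g was moved, and the floor is higher in CPM in classes with fewer UMIs (14.7 and 2.93 in lymphatic endothelial-like cells). The rise there comes from placing a gene that had no UMI, so these medians are not better estimates for the family. They show how far a median of 27 values can hang on 1 gene. In cardiomyocyte-like cells the scaling also matters: with library size as the only scaling the median shift of all genes was lower by 0.59, and the calls were 3 higher and 15 lower.

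**Figure D2:**
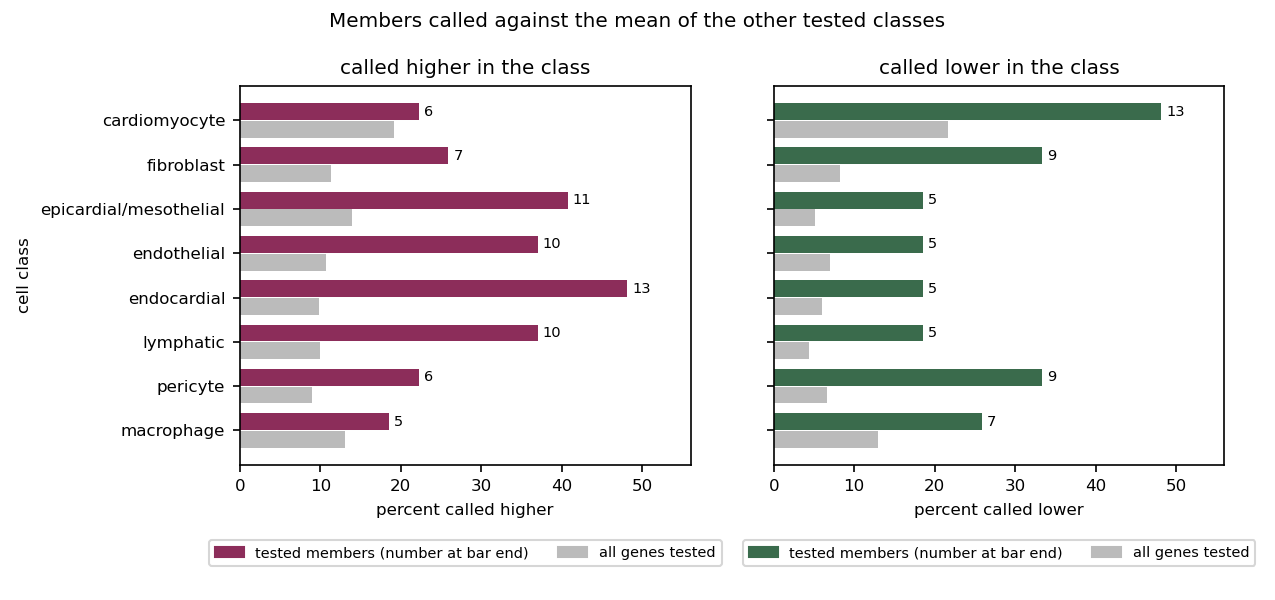
Bars give the percent of the 27 tested members (coloured, with the number at the bar end) and of all 12663 tested genes (grey) called higher (left) or lower (right) in each cell class. Endocardial-like cells had 13 members higher and cardiomyocyte-like cells 13 lower.

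Class 3 semaphorins are secreted ligands, and of the 8 tested classes the epicardial or mesothelial-like one held the highest level of 2 of them, Sema3c and Sema3e. Sema3c, known for its part in outflow tract septation, was at 457 and 824 CPM there, at 140.1 and 238 in fibroblast-like cells, and between 4.91 and 17.0 in the other 6 tested classes. The epicardial or mesothelial-like and fibroblast-like classes did not overlap with the others in either library, and both differences were called (5.06 ± 0.17 SE, edgeR adjusted p = 1.99e-13, and 3.08 ± 0.18, adjusted p = 2.07e-10). Sema3c was called lower in 5 classes, of which the macrophage-like call rested on library 2: the log2 difference was -0.53 in library 1 alone against -1.97 in both, and it turned to 0.10 with doublets kept. The other 4 lower calls were lost when cells were clustered more finely, at differences from -0.55 to -1.05. That fit lacked the epicardial or mesothelial-like class (38 cells in library 1), the highest in Sema3c. The mean these classes were set against was therefore a different one, and the part of finer clustering itself was not tested. Within the fibroblast-like class, Sema3c was at 487 and 660.0 CPM in cluster 10, whose leading genes include Pi16 and Cd248, and between 69.6 and 122 in clusters 3, 7 and 12. That cluster held 124 of 1109 and 494 of 2469 fibroblast-like cells.

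Sema3e, a ligand that binds plexin D1 without a neuropilin, was at 89.7 and 176 CPM in epicardial or mesothelial-like cells and at no more than 12.5 in any other tested class. The small Schwann or glial-like class, outside the 8, held more of it in both libraries, at 148 and 236. The epicardial or mesothelial-like difference was 6.17 ± 0.24 (edgeR adjusted p = 9.03e-13). It was also called higher in endocardial-like cells, at 3.11 and 12.5 CPM, but that call rested on library 2, since the log2 difference was 0.06 in library 1 alone and 1.93 in both. In cardiomyocyte-like cells, where Sema3e was at 0.603 and 0.63, it was called lower (-1.84 ± 0.55, edgeR adjusted p = 0.00662), a call lost when classes of 20 cells were admitted (adjusted p = 1.00).

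Sema3d, a ligand known for pulmonary vein patterning, had 2 sources at like levels. It was at 525 and 1089.8 CPM in lymphatic endothelial-like cells and at 544 and 963 in epicardial or mesothelial-like cells. The difference between these classes was 0.07 ± 0.18 (edgeR adjusted p = 0.825), while each differed from the mean of the rest by 4.75 ± 0.13 and 4.67 ± 0.12 (adjusted p = 2.4e-14 and 1.3e-14). Fibroblast-like cells came next at 52.0 and 122, a called difference of 1.11 that was lost without the library block (adjusted p = 0.0553). The remaining classes lay between 2.74 and 33.9, with cardiomyocyte-like cells lowest at 2.74 and 4.31. Library 2 gave the higher level in all 5 classes with at least 10 UMIs in each library, by a median of 1.05 on the log2 scale.

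Sema3a, the first described repellent of axons and a ligand of neuropilin 1, was highest in lymphatic endothelial-like cells at 255 and 680.2 CPM (4.22 ± 0.24, edgeR adjusted p = 3.6e-10). It was at 65.3 and 169 in endocardial-like, 72.4 and 73.1 in epicardial or mesothelial-like and 53.7 and 52.9 in cardiomyocyte-like cells, all called higher. The level in the other 4 classes lay between 4.62 and 19.1, all called lower. The endocardial-like difference was 1.13 in library 1 alone and 2.14 in both, and the pericyte-like one -0.90 and -1.61. Some of these calls were weak: the cardiomyocyte-like difference fell from 1.37 to 0.78 with library size only and the endothelial-like call (-1.10) was lost in 6 of the alternative settings, with adjusted p from 0.0558 to 0.228.

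Sema3f, which binds neuropilin 2 and is known to repel lymphatic endothelial cells, was at 118 and 152 CPM in lymphatic endothelial-like, 78.1 and 93.8 in epicardial or mesothelial-like, 71.5 and 52.0 in endocardial-like and 30.6 and 59.4 in endothelial-like cells. These 4 classes did not overlap with the other 4, which lay between 0.742 and 5.92. The called differences ran from 2.04 in endothelial-like to 3.70 in lymphatic endothelial-like cells, and all 4 lower classes were called lower. Sema3b, a class 3 semaphorin first studied as a tumour suppressor, was low in all 8 tested classes, at most 11.6 CPM. It was called higher in cardiomyocyte-like (9.84 and 6.67), epicardial or mesothelial-like (11.6 and 8.0) and fibroblast-like cells (10.6 and 8.05), with log2 differences of 2.19, 1.76 and 1.74.

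Sema3g, a ligand of neuropilin 2 known from arterial endothelium, was at 70.4 and 44.2 CPM in endothelial-like cells. It had no UMI in lymphatic endothelial-like, macrophage-like and pericyte-like cells of either library. Set against 3 UMIs per library, the endothelial-like level was at least 4.78-fold (library 1) and 15.1-fold (library 2) higher than in lymphatic endothelial-like cells, at least 9.74-fold and 14.9-fold higher than in macrophage-like cells, and at least 13.8-fold and 14.8-fold higher than in pericyte-like cells. Endocardial-like cells, at 9.33 and 2.12, were called higher too, but the difference was 0.89 in library 2 alone and the call was lost under 5 alternatives, with adjusted p from 0.0691 to 0.344.

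**Figure D3:**
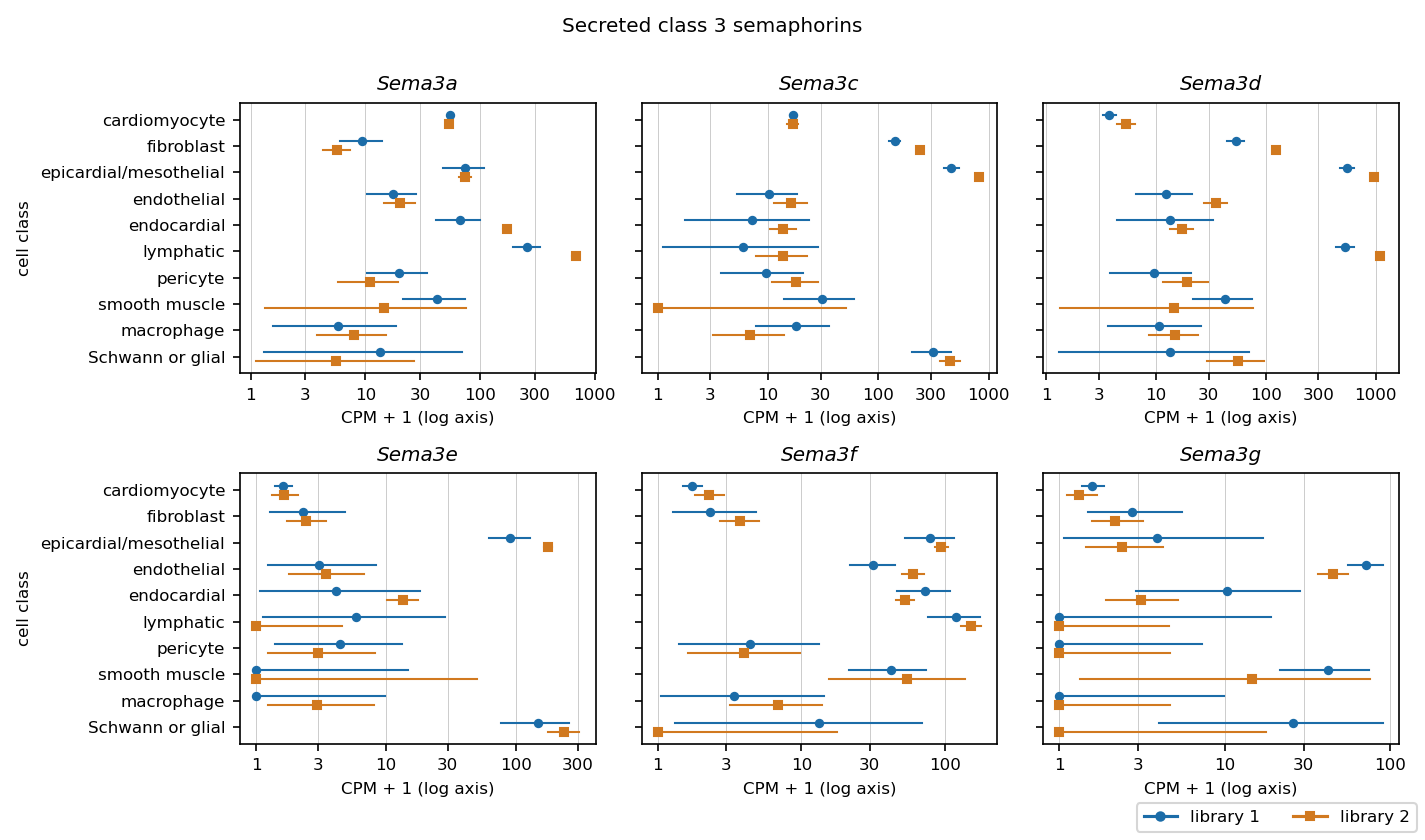
Levels of class 3 semaphorins in 10 cell classes (rows) for library 1 and library 2, as CPM + 1 on a log axis; bars are exact 95% Poisson intervals, which cover counting error only. Sema3c is highest in epicardial or mesothelial-like cells, Sema3e in Schwann or glial-like cells and next in epicardial or mesothelial-like cells, Sema3d in epicardial or mesothelial-like and lymphatic endothelial-like cells, and Sema3g in endothelial-like cells.

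The stretches before the start sites of 4 members are shown for the tested class in which each was highest: Sema3g and Sema7a in endothelial-like, Nrp2 in lymphatic endothelial-like and Sema3e in epicardial or mesothelial-like cells. They come from RefSeq promoters on GRCm38.p6, on the + strand, 5′ to 3′, cut to end before the annotated gene start. Capitals mark the GC box letters GGGCGG and the letters CAGGAAG, an ETS-type motif, on either strand. The windows are chr14:31217623-31217859 for Sema3g, chr9:57939862-57940111 for Sema7a, chr1:62703067-62703284 for Nrp2 and chr5:14025026-14025275 for Sema3e.
Sema3g: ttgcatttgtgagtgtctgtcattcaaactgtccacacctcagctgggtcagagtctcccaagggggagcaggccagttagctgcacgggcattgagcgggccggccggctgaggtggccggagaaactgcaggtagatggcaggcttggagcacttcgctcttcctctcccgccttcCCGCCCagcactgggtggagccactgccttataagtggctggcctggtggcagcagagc
Sema7a: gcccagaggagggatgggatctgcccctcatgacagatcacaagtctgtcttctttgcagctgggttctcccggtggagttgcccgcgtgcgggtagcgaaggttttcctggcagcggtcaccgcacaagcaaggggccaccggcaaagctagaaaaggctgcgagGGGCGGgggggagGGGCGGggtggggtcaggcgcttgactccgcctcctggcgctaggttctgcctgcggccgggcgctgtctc
Nrp2: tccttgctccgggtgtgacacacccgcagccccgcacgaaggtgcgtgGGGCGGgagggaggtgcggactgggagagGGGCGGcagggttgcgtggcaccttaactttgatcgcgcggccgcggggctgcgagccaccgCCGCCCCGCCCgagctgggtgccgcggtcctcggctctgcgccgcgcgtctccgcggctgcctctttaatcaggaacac
Sema3e: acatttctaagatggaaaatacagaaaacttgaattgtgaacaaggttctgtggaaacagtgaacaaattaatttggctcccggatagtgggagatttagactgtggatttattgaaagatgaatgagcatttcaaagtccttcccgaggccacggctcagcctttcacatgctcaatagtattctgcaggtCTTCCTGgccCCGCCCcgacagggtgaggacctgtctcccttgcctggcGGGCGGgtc
The Sema3g stretch holds 1 GC box, the Sema7a stretch 2, the Nrp2 stretch 4, of which a pair overlaps by 1 base, and the Sema3e stretch 2 and the single ETS-type match. Their GC content was 61.6%, 66.4%, 72.5% and 48.0%. RefSeq gave 37 promoters of 300 bases for 26 members, some with several start sites. A GC box on either strand was in 27 of the 37 (73.0%), where 35.7% of all 32851 promoters held one. The ETS-type letters were in 5 (13.5%), close to the 13.3% of all promoters. The TATA box letters TATAAA were in 0 of the 37 (13.6% of all promoters) and the E box CACGTG in 3 (8.11%, against 7.15%). A match is a description of letters, not a binding site.

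Class 4 semaphorins span the membrane and were spread over different classes. Sema4a, known from immune cells, was at 130.1 and 134 CPM in macrophage-like cells, at 20.3 and 9.94 in epicardial or mesothelial-like cells, and at no more than 7.98 elsewhere. The macrophage-like class stood apart from all others in both libraries (5.86 ± 0.24, edgeR adjusted p = 1.31e-12). The epicardial or mesothelial-like call (1.82) varied with the library, at 2.80 in library 1 alone and 1.21 in library 2 alone. Sema4b, a transmembrane semaphorin known from synapses, was highest in cardiomyocyte-like cells at 45.3 and 43.4, followed by epicardial or mesothelial-like cells at 37.6 and 15.7. Its cardiomyocyte-like difference was 2.86 ± 0.18 (edgeR adjusted p = 2.32e-10), and the other 6 classes lay between 2.93 and 21.7. A lower call in endocardial-like cells was -2.41 in library 1 alone against -1.48 in both.

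Sema4c, a ligand of plexin B2, was at 51.0 and 38.3 CPM in endothelial-like, 44.2 and 44.0 in lymphatic endothelial-like and 40.1 and 33.9 in fibroblast-like cells, all called higher, and at 2.44 and 1.58 in cardiomyocyte-like cells, called lower. The other 4 classes lay between 11.6 and 21.8. With doublets kept, the endothelial-like and fibroblast-like differences fell below 2-fold (0.86 and 0.93). Sema4d, or CD100, the ligand of plexin B1, was at 118 and 130 in lymphatic endothelial-like and 65.3 and 70.9 in endocardial-like cells. Endothelial-like cells, at 2.04 and 2.45, lay far under both, though their lower call (-3.17) fell to -0.90 with doublets kept, and so did pericyte-like cells at 0.0 and 2.0. Macrophage-like (41.0 and 31.6) and cardiomyocyte-like cells (28.1 and 28.7) were called higher as well, by 1.18 and 1.55. These last calls were the less firm ones: the macrophage-like difference was 0.65 with doublets kept and the cardiomyocyte-like one 0.97 with library size only.

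Class 5 semaphorins carry thrombospondin repeats. Sema5a, a ligand of plexin B3, was at 1049 and 1091 CPM in pericyte-like cells, at 359 and 374 in fibroblast-like cells and at 165 and 341 in epicardial or mesothelial-like cells. These classes did not overlap with the other 5, which lay between 4.91 and 60.5. The pericyte-like difference was 4.48 ± 0.18 (edgeR adjusted p = 1.3e-12), and pericyte-like exceeded fibroblast-like cells by 1.59 ± 0.26 (adjusted p = 0.000214). Among the lower calls, the cardiomyocyte-like one was -0.57 in library 1 alone against -1.34, the lymphatic endothelial-like one -3.84 against -2.05, and the macrophage-like one (-2.997) became -0.48 with doublets kept. Sema5b was at 20.4 and 26.9 in pericyte-like and 29.5 and 13.7 in lymphatic endothelial-like cells, both called higher (3.47 and 2.91), and at no more than 5.1 in the other classes. The lymphatic endothelial-like call of Sema5b was lost with doublets kept (2.08, edgeR adjusted p = 0.0579), and its lower call in cardiomyocyte-like cells was -0.92 in library 1 alone against -1.62.

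Class 6 semaphorins span the membrane and signal through A-type plexins. Sema6a, a ligand of plexins A2 and A4, was at 1430.4 and 1563 CPM in endothelial-like and 1488 and 1331 in lymphatic endothelial-like cells, which did not differ beyond their spread (0.21 ± 0.24, edgeR adjusted p = 0.662). It was at 513 and 393 in endocardial-like, 217 and 251 in fibroblast-like, 101 and 124 in epicardial or mesothelial-like, 28.9 and 49.9 in pericyte-like, 19.3 and 43.4 in macrophage-like and 3.16 and 5.36 in cardiomyocyte-like cells. Each of the 3 classes of endothelial kind was called higher (3.91, 3.67 and 1.87), and cardiomyocyte-like cells were called lower (-5.21 ± 0.27, adjusted p = 4.44e-11). With each cell thinned to 1000 UMIs, 67.5% and 71.8% of endothelial-like cells had a Sema6a UMI, and 0.379% and 0.676% of cardiomyocyte-like cells did. Cells under that depth were left out, so 486 of 588 and 795 of 844 endothelial-like cells (medians of 1531 and 2175 UMIs) and 7384 of 7419 and 2219 of 2220 cardiomyocyte-like cells (medians of 4840 and 7416) entered. Before thinning the shares were 75.2% and 85.5% against 1.75% and 4.46%.

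Sema6b was at 54.1 and 31.9 CPM in endothelial-like, 44.2 and 39.1 in lymphatic endothelial-like and 31.1 and 13 in endocardial-like cells, all called higher (2.50, 2.53 and 1.14), and between 0.0 and 21.7 elsewhere. The endocardial-like difference was 1.73 in library 1 alone and was lost without the library block. The lower calls in epicardial or mesothelial-like and pericyte-like cells, -2.20 and -2.56, were -0.99 and -5.14 in library 1 alone. The size of the -5.14 depends on a prior count, since library 1 had no UMI there. Sema6c differed between libraries more than between most classes: it was at 26.6 and 5.2 in cardiomyocyte-like and 32.2 and 14.7 in fibroblast-like cells, the 2 classes called higher (1.48 and 1.80). Library 1 exceeded library 2 there by 2.35 and 1.13 on the log2 scale, the fibroblast-like difference was 1.20 in library 1 alone, and the cardiomyocyte-like call was lost with library size only. Sema6d, known for its part in forming the ventricular wall, was at 331 and 446 in pericyte-like and 258 and 377 in endocardial-like cells, both called higher (1.47 and 1.15). Its other classes lay between 92.8 and 229 except the cardiomyocyte-like one at 32.2 and 31.4, called lower (-2.002).

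Sema7a, the lipid-anchored semaphorin that binds plexin C1 and beta-1 integrins, was at 181 and 188 CPM in endothelial-like cells, at 32.3 and 53.9 in pericyte-like cells, and at no more than 6.22 in the other 6 classes. Endothelial-like cells were higher than the mean of the rest by 5.44 ± 0.15 (edgeR adjusted p = 1.39e-14) and than pericyte-like cells by 2.09 ± 0.22 (adjusted p = 7.52e-07), and pericyte-like cells were called higher by 3.05. After thinning, 16.3% and 17.6% of endothelial-like cells had a Sema7a UMI against 0.0271% and 0.135% of cardiomyocyte-like cells, and before thinning the shares were 23.5% and 31.6% against 0.310% and 0.676%.

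The neuropilins, co-receptors for class 3 semaphorins, were ordered differently across the endothelial classes. Nrp1, which also binds VEGF-A, was at 1417 and 1739 CPM in endothelial-like and 1465 and 1338 in endocardial-like cells, both called higher (1.43 ± 0.16 and 1.17 ± 0.17, edgeR adjusted p = 1.72e-06 and 3.43e-05). It followed at 952 and 1021 in macrophage-like, 929 and 655 in pericyte-like, 857 and 504 in cardiomyocyte-like, 557 and 526 in fibroblast-like, 397 and 308 in epicardial or mesothelial-like and 231 and 143 in lymphatic endothelial-like cells. Down to the cardiomyocyte-like class, no neighbours in this order differed beyond their spread (adjusted p from 0.0928 to 0.621), and the lymphatic endothelial-like class was called lower (-2.32 ± 0.24, adjusted p = 7.98e-07). The endocardial-like call fell below 2-fold with stricter cell filters (0.83), and the lower call in epicardial or mesothelial-like cells (-1.20) did so when classes of 20 cells were admitted (-0.92). The fit with stricter filters lacked the lymphatic endothelial-like class (49 cells in library 1), the lowest in Nrp1, and the other fit had added classes. The mean of the other classes therefore differed in both.

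Nrp2, the co-receptor for VEGF-C in lymphatics, was highest in lymphatic endothelial-like cells at 1188 and 1154 CPM, followed by endothelial-like cells at 623 and 674. Macrophage-like cells were at 199.9 and 202, endocardial-like at 196 and 165, pericyte-like at 81.5 and 86.8, epicardial or mesothelial-like at 72.4 and 84.7, fibroblast-like at 30.8 and 22.5 and cardiomyocyte-like at 1.88 and 3.15. The lymphatic endothelial-like and endothelial-like classes were called higher (3.88 ± 0.12 and 3.05 ± 0.12, edgeR adjusted p = 2.18e-13 and 1.58e-12), and the former exceeded the latter by 0.73 ± 0.19 (adjusted p = 0.0114). Cardiomyocyte-like cells held little Nrp2 and were called lower by -5.57 ± 0.22. Nrp2 overlaps a feature on the opposite strand, and no source used here says whether counting used strand.

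A-type plexins take class 3 signals through neuropilins and class 6 signals directly. Plxna4 was at 2480.5 and 4119 CPM in epicardial or mesothelial-like cells. Endocardial-like cells were at 728 and 1131 and lymphatic endothelial-like cells at 545 and 1023, followed by 520.3 and 607 in macrophage-like, 342 and 440.4 in endothelial-like, 159 and 189.6 in fibroblast-like, 139.8 and 162 in cardiomyocyte-like and 18.7 and 38.9 in pericyte-like cells. The epicardial or mesothelial-like level exceeded all others in both libraries (3.42 ± 0.13, edgeR adjusted p = 1.25e-12) and the next class by 1.75 ± 0.23, and pericyte-like cells were lowest (-4.25 ± 0.26). Library 2 was higher in all 8 classes, and 3 antisense features overlap this gene. Plxna2, a receptor of class 6 semaphorins and of Sema3c, was highest in endothelial-like cells at 372 and 514 (1.96 ± 0.14), with endocardial-like cells at 252 and 298 also called higher (1.14), and lowest in macrophage-like cells at 14.5 and 32.6 (-2.84). The endocardial-like call was lost under 3 alternatives, down to 0.80, and the lower call in epicardial or mesothelial-like cells was -0.46 in library 1 alone against -1.10. Plxna1 was called higher in 1 class, pericyte-like cells at 50.9 and 32.9 (1.76 ± 0.24), with all others between 7.82 and 19.3.

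B-type plexins bind class 4 semaphorins. Plxnb1, the receptor of Sema4d, was at 72.4 and 43.6 CPM in epicardial or mesothelial-like, 42.4 and 44.9 in pericyte-like and 27.3 and 17.0 in cardiomyocyte-like cells, all called higher (2.60, 2.33 and 1.72), and between 1.54 and 19.6 in the others. The pericyte-like difference was 1.48 in library 1 alone, and the lower call in fibroblast-like cells was -1.24 in library 1 alone against -1.97. Plxnb2, the receptor of Sema4c, was at 142 and 109 in epicardial or mesothelial-like and 108 and 79.9 in macrophage-like cells, both called higher (1.79 and 1.31), and lowest in endothelial-like cells at 13.3 and 7.86 (-2.24). The macrophage-like call was lost with doublets kept (0.68), and the lower call in lymphatic endothelial-like cells (-1.16) was -1.89 in library 1 alone. Endothelial-like cells, in which Sema4c was called higher, thus had the lowest Plxnb2 of the tested classes, though not beyond the spread to the next, lymphatic endothelial-like cells (0.94 ± 0.36, edgeR adjusted p = 0.0814).

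Plxnc1, the receptor of Sema7a, was at 137 and 222 CPM in endocardial-like, 98.8 and 108 in macrophage-like and 67.9 and 77.3 in fibroblast-like cells, and between 0.0 and 16.3 in the other 5 classes without overlap. All 3 were called higher (3.76 ± 0.21, 2.70 ± 0.26 and 2.16 ± 0.21, edgeR adjusted p = 1.79e-10, 1.3e-07 and 1.99e-07). Endothelial-like cells, which held the most Sema7a, had Plxnc1 at 16.3 and 9.33, and pericyte-like cells at 0.0 and 9.98. The pericyte-like lower call was -5.58 for library 1 and -1.16 for library 2 fitted on its own, and the lymphatic endothelial-like one -0.63 in library 1 alone against -1.73.

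Plxnd1, the receptor of Sema3e and with neuropilins of Sema3c, was at 289 and 268 CPM in macrophage-like and 261 and 265 in endothelial-like cells, which did not differ beyond their spread (-0.02 ± 0.15, edgeR adjusted p = 0.945). Lymphatic endothelial-like cells were at 177 and 139.8, endocardial-like at 162 and 147, pericyte-like at 124 and 123 and fibroblast-like at 48.9 and 43.7. Epicardial or mesothelial-like cells, at 14.5 and 14.6, and cardiomyocyte-like cells, at 10.6 and 10.6, were lowest and called lower (-2.88 ± 0.18 and -2.73 ± 0.14). Among the 8 tested classes, Sema3e and Sema3c were thus highest in one that was called lower for Plxnd1. Other pairs shared a class: Sema6a and Plxna2 were both called higher in endothelial-like cells, and Sema3f and Nrp2 in lymphatic endothelial-like and endothelial-like cells. Ligands and receptors of the family thus followed no single pattern. In Schwann or glial-like cells, where Sema3e was higher still, Plxnd1 was not called (-0.78 ± 0.30, edgeR adjusted p = 0.180). Macrophage-like, endothelial-like and endocardial-like cells were called higher (1.95, 1.97 and 1.04), and the endocardial-like call fell below 2-fold under 3 alternatives, down to 0.70.

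**Figure D4:**
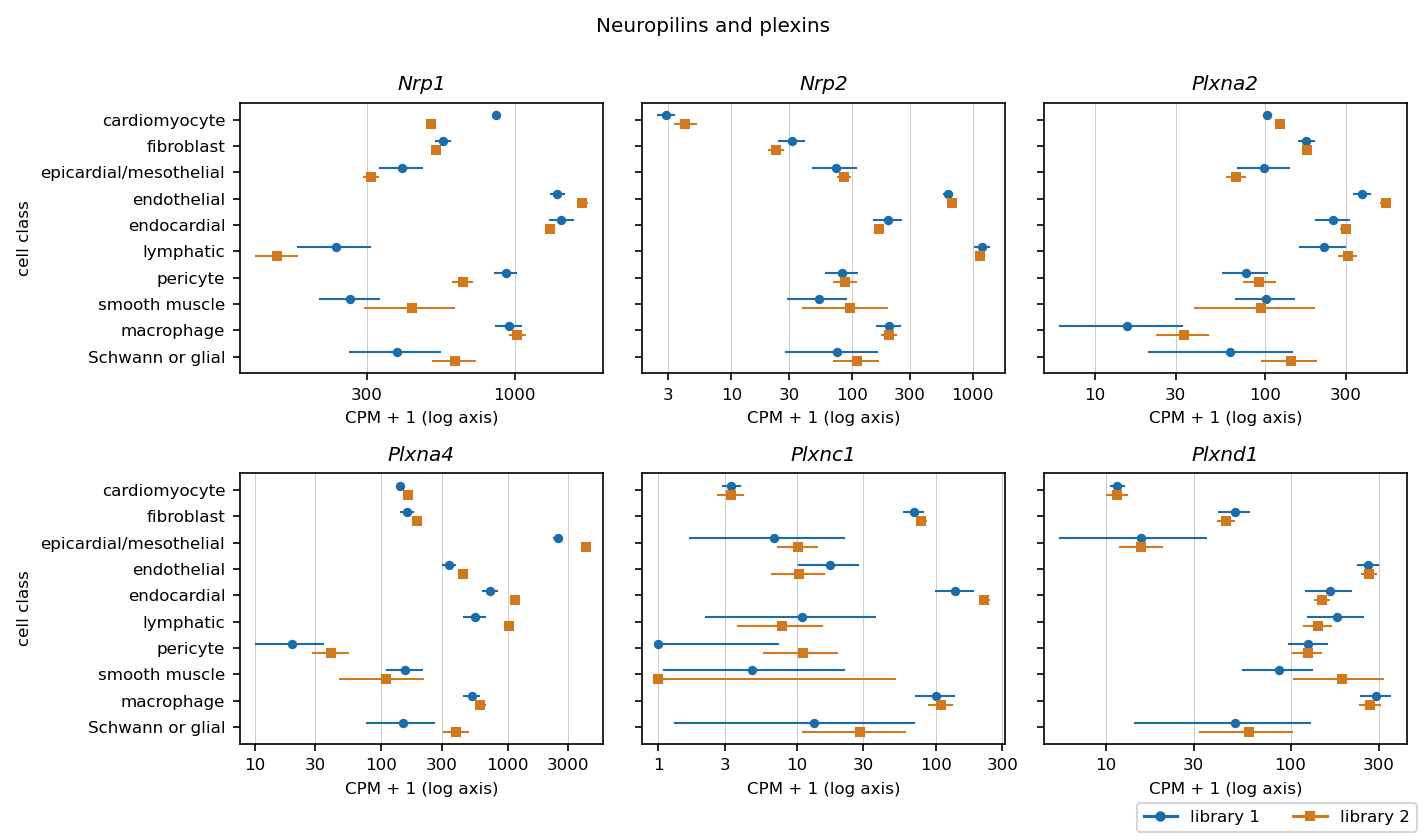
Levels of Nrp1, Nrp2 and 4 plexins in 10 cell classes (rows) for library 1 and library 2, as CPM + 1 on a log axis; bars are exact 95% Poisson intervals. Nrp2 is highest in lymphatic endothelial-like cells, where Nrp1 is lowest; Plxna4 is highest in epicardial or mesothelial-like cells and Plxnc1 in endocardial-like cells.

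The 3 classes of endothelial kind were also set against each other. Between endocardial-like and endothelial-like cells, 8 members were higher and 6 lower in endocardial-like cells (7.42% and 6.66% of all tested genes). The widest differences were in Sema7a (-5.55 ± 0.30, edgeR adjusted p = 1.27e-09), Sema4d (4.87 ± 0.37, adjusted p = 3.84e-08) and Plxnc1 (3.96 ± 0.35, adjusted p = 2.64e-07) besides Sema3g. Nrp1 did not pass there (-0.22 ± 0.24, which spans values either side of 0), while Nrp2 was lower in endocardial-like cells by -1.92. Sema3a, Sema3e, Sema5a, Sema6d, Plxna4 and Plxnb2 were the other higher members, and Sema3g, Sema4c, Sema6a and Sema6b the other lower ones.

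Between endothelial-like and lymphatic endothelial-like cells, 3 members were higher and 4 lower in endothelial-like cells (7.05% and 7.43% of all genes), though several differences were wide. Sema4d (-5.65 ± 0.36), Sema3d (-5.03 ± 0.23), Sema3a (-4.66 ± 0.41) and Sema3f (-1.45 ± 0.25) were lower, and Sema7a (5.18 ± 0.35), Nrp1 (3.28 ± 0.28) and Sema3g were higher in endothelial-like cells. Between endocardial-like and lymphatic endothelial-like cells, 6 members were higher and 8 lower in endocardial-like cells (6.40% and 6.52%). Plxnc1 (4.80 ± 0.47), Nrp1 (3.06 ± 0.28), Sema3e, Sema5a, Sema6d and Plxnb2 were higher, and Sema3d (-5.88 ± 0.26), Nrp2 (-2.65 ± 0.21), Sema3a, Sema3f, Sema4c, Sema5b, Sema6a and Sema6b were lower. All 3 pairs share classes, so their differences are not independent. Lymphatic endothelial-like cells numbered 51 in library 1 and 192 in library 2.

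**Figure D5:**
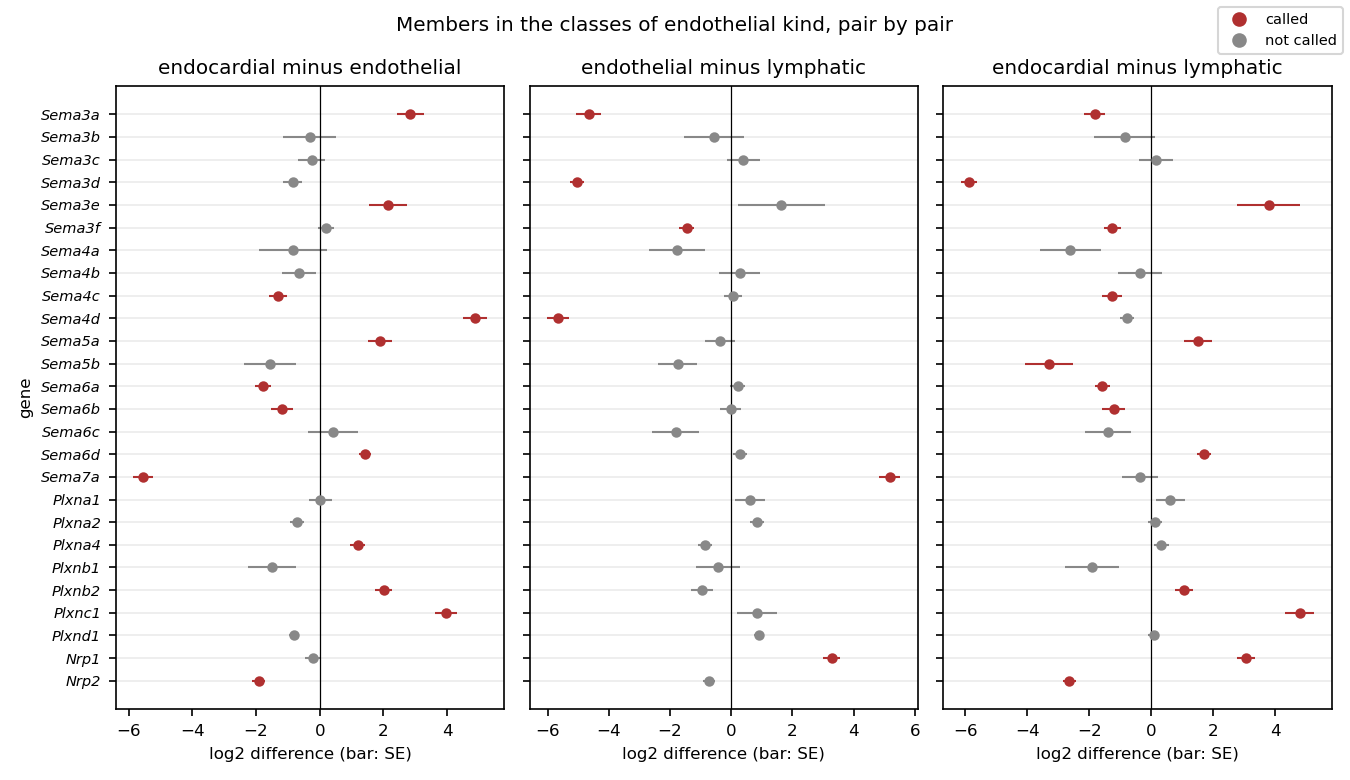
Points give the log2 difference of each tested member except Sema3g, which had no UMI in lymphatic endothelial-like cells, between pairs of endothelial, endocardial and lymphatic classes; bars are the SE, red points passed the call and grey ones did not. Sema7a, Sema4d and Plxnc1 lie farthest from 0 in the endocardial minus endothelial pair.

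The smooth muscle-like class (81 and 23 cells) and the Schwann or glial-like class (35 and 54 cells), too small for the 8-class fit, were tested in a second fit of 13227 genes that admitted classes of at least 20 cells. Schwann or glial-like cells, which accompany cardiac nerves, had 6 members higher and 0 lower (4.61% and 1.09% of all genes). Of these 6, 2 entered the fit only by way of this class, as described below, and should not be weighed against that share. Sema3e was at 148 and 236 CPM (6.46 ± 0.40, edgeR adjusted p = 1.08e-10), Sema3c at 309 and 449 (3.57 ± 0.27, adjusted p = 1.4e-09), Sema3b at 136 and 68.1 (4.53 ± 0.44, adjusted p = 9.22e-08) and Sema4d at 86.4 and 68.1 (2.14 ± 0.38, adjusted p = 0.000538). The other 2, Sema4f and Plxnb3, had failed the filter on low counts in the 8-class fit. They passed it once this class, in which they were highest, was admitted, so their higher calls follow from the filter and are no support. Sema4f, a transmembrane semaphorin, was at 49.4 and 99.8 from 4 and 22 UMIs, and it had no UMI in 5 tested classes in either library and at most 1.70 elsewhere. Plxnb3, the receptor of Sema5a, was at 12.3 and 40.8 from 1 and 9 UMIs.

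Smooth muscle-like cells, the contractile wall of vessels, had 5 members higher and 2 lower (6.60% and 1.60%). Sema5a was at 291 and 781 CPM (2.55 ± 0.27, edgeR adjusted p = 4.48e-07), Sema5b at 41.0 and 108 (4.12 ± 0.64, adjusted p = 0.000108), Sema3f at 41.0 and 53.9, Plxnb1 at 48.5 and 53.9 and Sema3g at 41.0 and 13.5, the last value being 1 UMI. Sema5a and Sema5b were thus high in both mural classes, pericyte-like and smooth muscle-like. Nrp1, at 261 and 431, and Plxna4, at 153 and 108, were lower (-1.15 and -1.39). The remaining untested members were low: Plxna3 reached 8.68 CPM in a tested class and Sema4g 4.91.

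Levels in the libraries were compared only as a description, in classes with at least 10 UMIs in each library. Plxna4 was higher in library 2 in 8 of 8 classes, by a median of 0.50 on the log2 scale (range 0.21 to 1.06), and Sema3d in 5 of 5. Plxnb2 was higher in library 1 in 7 of 7 classes (0.22 to 0.76) and Sema6b in 3 of 3 (0.76 to 1.26). Plxnd1 and Nrp2 differed little, with medians of 0.11 and -0.05 for library 1 minus library 2. The libraries have the same labels but differed in Xist (1246 and 529 CPM) and Uty (0.293 and 214), and whether these shifts come from the sex of the animals, other differences between animals, the make-up of the suspension or the handling cannot be told apart.

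Beyond the family, a list of 48 genes of the same pathway held 32 cytoplasmic effectors of plexins and 16 other receptors or co-receptors, of which 45 were tested. The number higher and lower was 3 and 21 in cardiomyocyte-like, 12 and 13 in macrophage-like, 11 and 3 in lymphatic endothelial-like, 9 and 2 in endothelial-like, 7 and 4 in epicardial or mesothelial-like, 6 and 3 in endocardial-like, 6 and 6 in fibroblast-like and 6 and 4 in pericyte-like cells, against the shares of all genes given above for each class. The median log2 difference of the list was -1.02 in cardiomyocyte-like cells and between -0.12 and 0.17 in the other classes. Cardiomyocyte-like cells had the most lower calls in both the family and the pathway list, and also the highest share of all genes called lower (21.6%).

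Among cytoplasmic effectors, Mical3, a flavin monooxygenase that oxidises actin, was at 595 and 469 CPM in cardiomyocyte-like cells (2.36). Lymphatic endothelial-like cells were close, with Mical3 at 521 and 451. Dpysl4, of the collapsin response mediator family, was at 20.8 and 11.6 in cardiomyocyte-like cells (4.44). Arhgap35, a GTPase-activating protein, was called higher in cardiomyocyte-like cells (1.09), at 171 and 197. Its CPM was much the same in pericyte-like (180.0 and 207) and fibroblast-like cells (179 and 191). The scaling described above raised cardiomyocyte-like differences by 0.59, so this call leans on it. Dpysl2, also a collapsin response mediator, was lower in cardiomyocyte-like cells, at 7.01 and 8.61 (-4.06), and highest in pericyte-like cells, at 290.3 and 329. Its relative Dpysl3 was at 213 and 297 in fibroblast-like cells (2.09) and at a like level, 226 and 288, in lymphatic endothelial-like cells. Dpysl3 was at 11.9 and 12.0 in pericyte-like cells (-2.94) and at 20.3 and 22.9 in epicardial or mesothelial-like cells (-2.08). Dpysl5 was at 34.7 and 66.5 in epicardial or mesothelial-like cells (6.83), and Crmp1 at 39.3 and 14.7 in lymphatic endothelial-like cells (5.29). The collapsin response mediators thus did not all share the same highest class, though lymphatic endothelial-like cells were high in both Dpysl3 and Crmp1.

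Rnd3, a small GTPase that binds plexins, was at 151 and 136 CPM in pericyte-like (2.95) and 78.0 and 120.5 in fibroblast-like cells (2.30). It was called lower in endothelial-like cells, at 6.12 and 3.44 (-2.81), in lymphatic endothelial-like cells, at 14.7 and 4.89 (-2.28), and in endocardial-like cells, at 0 and 10.1 (-1.71). Limk1, the kinase of cofilin, was at 79.8 and 80.8 in pericyte-like cells (3.20) and at 9.82 and 2.93 in lymphatic endothelial-like cells (-1.79). Mical2 was at 426 and 659.9 in endocardial-like cells (1.54), with lymphatic endothelial-like cells close at 442 and 566. In pericyte-like cells Mical2 was at 88.3 and 112 (-1.25), and Mical1 was lower in endothelial-like cells at 4.08 and 6.38 (-1.31). Farp1, a plexin-A partner, was lower in macrophage-like cells at 12.0 and 11.8 (-4.31), and the tyrosine kinases Fyn (78.1 and 71.8) and Fes (2.89 and 4.69) were lower in epicardial or mesothelial-like cells (-1.95 and -2.25). Dpysl4 in endocardial-like cells had no UMI in either library and Sh3bp1, a GTPase-activating protein, was at 9.82 and 0 in lymphatic endothelial-like cells, and both were called lower.

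Among other receptors, Kdr, the VEGF-A receptor that pairs with neuropilin 1, was at 420.3 and 475 CPM in endothelial-like cells (3.81). Lymphatic endothelial-like cells followed at 309 and 340.1 and epicardial or mesothelial-like cells at 295 and 359. Endocardial-like cells lay under both, at 124 and 80.7 (1.17). Kdr was called lower in cardiomyocyte-like, fibroblast-like and pericyte-like cells, where it lay between 2.20 and 11.9. Itga1, an integrin chain of a Sema7a receptor, was at 720.3 and 763 in endothelial-like and 703 and 1017 in pericyte-like cells (3.11 and 3.30), the same classes in which Sema7a was called higher, and at 28.9 and 18.7 in macrophage-like cells (-2.83). Nrcam, a cell adhesion molecule that joins neuropilin complexes, was at 147 and 155 in lymphatic endothelial-like cells (6.50) and at most 4.03 elsewhere. Mst1r, a receptor tyrosine kinase that couples to B-type plexins, was at 63.7 and 55.2 in epicardial or mesothelial-like and 41.9 and 23.7 in fibroblast-like cells (4.92 and 3.84). Its relative Met was lower in fibroblast-like cells, at 1.32 and 2.37 (-2.61), and in macrophage-like cells, at 0 and 1.97 (-3.28).

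Trem2 and Tyrobp, a myeloid receptor and its adaptor that join plexin A1, were at 60.2 and 40.5 and at 193 and 183 CPM in macrophage-like cells, and both were called higher there. Trem2 was called higher in epicardial or mesothelial-like cells too, at 26.0 and 14.6, while Tyrobp was at 2.89 and 3.59 there. Ptprc, the leukocyte phosphatase CD45 and the enrichment marker, was higher in macrophage-like cells (7.44) and lower in endocardial-like cells at 3.11 and 3.19. Flt1, the decoy VEGF receptor, at 2007 and 2407 in endothelial-like and 803 and 1006 in endocardial-like cells, and Flt4, the VEGF-C receptor, at 889 and 940.2 in lymphatic endothelial-like cells and between 0.835 and 2.49 in cardiomyocyte-like and fibroblast-like cells, were among the markers used to name classes, so their calls describe the naming.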

How the data were processed

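The authors deposited 1 table of UMI counts, not normalized, for both libraries, and its header names Cell Ranger 6.0.0. GRCm38 (mm10) is the build, and Seurat, edgeR, Cell Ranger, Trimmomatic and fastp are the tools, that the submitters' processing notes list without roles. No source used here says whether counting used strand or introns. Barcodes ending in 1 or 2 were given to the samples whose titles end in that number.

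Cells needed at least 500 UMIs, 200 genes and at most 25% mitochondrial counts, which 22137 of 22183 barcodes passed. A simulated-doublet score marked 5.23% and 6.16% of the cells in library 1 and library 2, and with clusters of which over 40% were marked, 1455 cells were removed. Leiden clustering (leidenalg 0.10.2; 2000 variable genes, 30 components, resolution 1) gave 27 clusters, of which 11 stayed unnamed, holding 15.9% and 6.24% of cells. The rule that leaves a cluster unnamed where a second cell type's markers reach 6-fold was added after seeing the data. UMIs were summed per library and class, so the cells of a library are not replicates. Classes that reached 50 cells in each library were fitted with edgeR 4.0.16 in R 4.3.3 (TMM scaling, filterByExpr, class plus library, Benjamini-Hochberg over all genes), which left 7 residual degrees of freedom. Because the classes of a library come from 1 suspension, library pairs them by construction. The procedure was tried on simulated counts in which a small set of genes differed in a single class and no other gene differed. Classes in these data differ in far more genes, so that trial does not cover the scaling between them. Intervals are exact at 95% and cover counting error only, and a count of 0 was given a floor of 3 UMIs.

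The members, the pathway list and the markers were chosen with earlier results of these data known. Values are given for every member called higher in at least 1 class, and of the pathway list the 3 highest and 3 lowest called in each class are named. Of the members, 6 overlap another feature, each on the opposite strand (Nrp2, Plxna1, Plxna4, Plxnb1, Sema3e and Sema6d). Alternatives were DESeq2 1.42.0, library size only, no filter on low counts, no library block, stricter cell filters (1000 UMIs, 500 genes, 5% mitochondrial counts), doublets kept, resolutions 0.5 and 2, classes of at least 20 cells and each library alone. Sema6a's promoter was not analysed here.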

Additional observations from a re-analysis of the deposited data

Results flagged for a closer look

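In cells outside the 8 tested classes, 5 readings exceeded the highest tested class of the same library in both libraries, with the lower end of the exact 95% Poisson interval above it. Sema3b in Schwann or glial-like cells was at 136 (67.8 to 243, 11 UMIs) CPM in library 1 and 68.1 (38.1 to 112, 15 UMIs) CPM in library 2, where no tested class passed 11.6 and 8.05. Sema4f in the same class was at 49.4 (13.5 to 126, 4 UMIs) and 99.8 (62.6 to 151, 22 UMIs), where no tested class passed 1.70 and 0.118.

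Sema3g in cluster 23, an unnamed cluster of 12 and 51 cells whose leading genes include Atp2a3, Sema3g and the arterial connexin gene Gja5, was at 987 (656 to 1426) and 334 (248 to 440.3), against 70.4 and 44.2 in endothelial-like cells. Cluster 22, an unnamed cluster of 17 and 68 cells whose leading genes include Ptprb, Sema5b and Vwf, had Sema5b at 126 (41.0 to 295) and 279 (213 to 360.3), where no tested class passed 29.5 and 26.9. In the same cluster Sema6b was at 177 (71.1 to 364) and 90.0 (54.2 to 140.5), against at most 54.1 and 39.1. Neither cluster was named or tested.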

How the results depend on the processing

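Of the 126 calls of single members, 87 were kept in every alternative in which they could be tested, and 39 were lost in at least 1, 9 of them in 3 or more. DESeq2 lost 3, no filter on low counts 2, library size only 4 and stricter cell filters 8. Resolution 2 lost 14 and classes of at least 20 cells 10. Resolution 0.5 lost 8 and reversed 1 more, and doublets kept lost 19 and reversed 1 more. Without the replicate block, which pairs the classes of a library, 8 were lost: Plxnc1 in lymphatic endothelial-like, Sema3a in endothelial-like, Sema3c in pericyte-like, Sema3d and Sema5b in fibroblast-like, Sema3g and Sema6b in endocardial-like and Sema6b in pericyte-like cells. The counts moved by over 1.5 times in these cases. Higher members in cardiomyocyte-like cells were 3, not 6, with library size only. Lower members in endothelial-like and in lymphatic endothelial-like cells were 3, not 5, at resolution 2. Lower members in epicardial or mesothelial-like cells were 3 with doublets kept and 2 with classes of at least 20 cells, not 5. In macrophage-like cells, higher members were 3, not 5, and lower ones 4, not 7, both with doublets kept and at resolution 0.5, when the class held 609 and 512 cells of library 2 in place of 350. Sema3c in macrophage-like cells reversed from -1.97 to 0.10 with doublets kept and to 0.22 at resolution 0.5. The cause was not tested. In 1 library alone, which gives values without a test, 20 of the 126 called differences were more than 1.5 times larger or smaller in at least 1 of the libraries. None changed sign, though the calls were made on these same libraries. By more than 1 SD between the single-library values, 30 moved without replicate 1 and 57 without replicate 2. That SD is small where the libraries are alike, and single-library values come without the fit. A value can thus count as moved though the libraries are close, as for Nrp2 in endothelial-like cells (3.02 and 3.01 alone, 3.05 in both). These numbers do not measure instability alone. Lymphatic endothelial-like cells (49 in library 1) could not be tested under stricter filters, nor epicardial or mesothelial-like cells (38 in library 1) at resolution 2. A class missing from a fit, or added to it, also changes the mean that the other classes were set against. Calls lost in those fits may therefore differ for that reason, which was not tested. Stricter filters left 288 cardiomyocyte-like cells in library 2. Depth limits members with few UMIs in most classes, such as Sema3b, Sema3g and Sema5b, whose counting intervals are wide.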
